A study of Mus musculus with 15 samples.

Results

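Uteri of ovariectomized CD-1 mice collected 24 h after an injection of 250 ng of E2 were compared with uteri of ovariectomized CD-1 mice injected with vehicle. The 6 samples of this comparison, 3 titled as E2 at 24 h and 3 titled as vehicle, were 6 of the 15 in the study. The other 9 were 3 each of E2 at 2 h, E3 at 2 h and E3 at 24 h, at the same dose. E2 and E3 are read here by their usual meaning, estradiol and estriol. Each injection held 100 µl of saline, with the oestrogen in the E2 samples and without it in the vehicle samples. Removal of the ovaries was common to all groups, so vehicle uteri had neither ovarian hormone nor injected oestrogen. CD-1 is an outbred stock. The labels give no age, no genotype and no collection time for the vehicle uteri, and they do not say whether replicates are separate animals or pools. The p-values therefore rest on a spread between samples that may be technical.

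Oestradiol acts on the uterus through the nuclear receptor ERα, which binds DNA and recruits coregulators in epithelium, stroma and smooth muscle. In the ovariectomized rodent the response is classically described in phases. An early phase of transcription factor induction, water uptake and vascular leakage is followed by a later phase of epithelial DNA synthesis, cell division, secretion and tissue growth. The comparison asks what the whole-tissue transcript profile looked like a day after the hormone.

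Total RNA was labelled with Cy3 and hybridized to one-colour Agilent mouse arrays, 1 per sample. A level is given below as the log2 of an array's processed signal minus the 75th percentile of that array, so that 0 is the 75th percentile and a step of 1 is a 2-fold step. A change is the E2 24 h mean minus the vehicle mean of these levels, given as log2 with its standard error (n = 3 arrays per group). Levels of different probes were not compared with each other. A probe was tested if it was well above background, a call in the files, on all 3 arrays of either group, which held for 29728 of 41121 probes. These represented 19627 genes, 15429 of them with a symbol, each through its brightest probe over all arrays. A gene was called when limma's p, from a model of all 15 arrays and adjusted by Benjamini-Hochberg over the 29728 probes, was under 0.05.

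The 75th percentile of the signal was 1254, 1338 and 1506 signal units on the E2 24 h arrays and 1799.9, 1715 and 1373 on the vehicle arrays. Between 68.6% and 76.1% of probes were well above background with E2 and between 71.6% and 80% in vehicle. Across probes, which are not replicates, arrays correlated at 0.986 to 0.988 within the E2 24 h group and at 0.987 to 0.990 within vehicle, and the median standard deviation of a probe was 0.198 and 0.178. The number of arrays, 3 a group, limits the precision of every value. All vehicle arrays lay on 1 slide that held no other group, while the E2 24 h arrays lay on 3 other slides, so that an effect of the vehicle slide cannot be told apart from the treatment. E2 24 h replicate 1 was scanned on another day than the other 5 arrays.

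All members of the lists for uterine smooth muscle (12 of 12), epithelium (10 of 10) and endometrial stroma (10 of 10) passed the detection filter. Acta2, smooth muscle actin, had levels of 8.52, 8.34 and 7.78 with E2 and 7.20, 7.43 and 7.82 in vehicle at its brightest probe, and its 4 other probes had changes from -1.93 to 1.0. Krt8, a simple-epithelium keratin, had 6.52, 6.06 and 6.28 with E2 and 5.24, 5.10 and 5.55 in vehicle. Dcn, the stromal proteoglycan decorin, had 7.26, 7.33 and 7.20 with E2 and 7.65, 7.84 and 8.05 in vehicle. Markers of tissues next to the uterus were also seen. The summed adipocyte markers varied within both groups, at 6.33, 3.58 and 7.22 on the log2 scale with E2 and 5.39, 7.62 and 4.10 in vehicle, and 0 of its 8 members were called. The skeletal muscle list was higher with E2, at 5.30, 5.72 and 5.08, against 2.99, 3.86 and 3.73 in vehicle, and 2 of its 6 tested members rose, Acta1 (α-skeletal actin) by 1.59 ± 0.28 and Tnni2 (fast troponin I) by 2.36 ± 0.51. Its defining marker Ckm, muscle creatine kinase, had a change of 1.86 ± 0.89 (adjusted p = 0.11), and Myh1 was not tested. Of the 5 uroplakins of the bladder, Upk2 rose by 1.95 ± 0.24 and the other 4 were not called, and of 7 markers of ovary and oviduct tested, Cyp17a1 rose and Star, Inha and Ovgp1 fell. The call of Cyp17a1 was lost without E2 24 h replicate 1 or 3 and without vehicle replicate 1 or 2. The part of neighbouring tissue in the results below was not tested.

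A day after E2, a large share of the measured transcriptome differed from vehicle. Of the 19627 genes, 8778 were called (44.7%), 4275 higher (21.8%) and 4503 lower (22.9%), and the median change of all genes was -0.01. At 2-fold or more there were 3242 genes (16.5%), 1254 higher (6.39%) and 1988 lower (10.1%), and at 4-fold or more 214 were higher and 275 lower. In 57.3% of genes the levels of the 3 E2 arrays did not overlap those of the 3 vehicle arrays. The representing probes of 27 genes were well above background on all 3 E2 arrays and on 0 of 3 vehicle arrays, and those of 195 genes on 0 of 3 E2 arrays and all 3 vehicle arrays. Counted over probes, 13506 of 29728 (45.4%) were called, 6162 higher (20.7%) and 7344 lower (24.7%). For every list set against vehicle below, the shares to hold beside its counts are 21.8% higher and 22.9% lower over all genes.

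**Figure D1:**
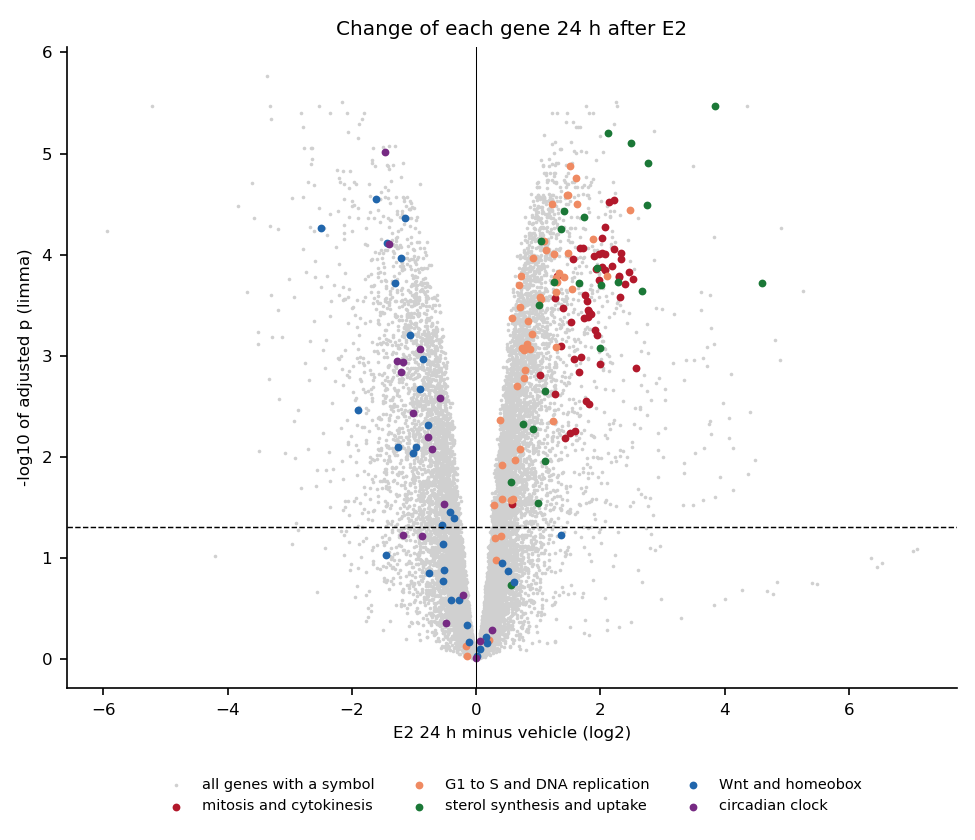
Change from vehicle (E2 24 h minus vehicle, log2) against -log10 of limma's adjusted p for the 15429 genes with a symbol, each point a gene; coloured points are genes of 5 lists and the dashed line marks an adjusted p of 0.05. The called members of the mitosis, DNA replication and sterol lists lie on the higher side, and those of the Wnt and homeobox and clock lists on the lower side.

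The balance of the directions changed when levels were set against the median of an array in place of its 75th percentile. Then 9023 probes were higher and 4854 lower, and the median change of all probes was 0.17 in place of -0.06. The direction of a change smaller than this shift therefore depends on the scaling chosen. For several lists the counts are given below under both scalings, and others moved too. Under median scaling 8 clock genes were lower in place of 11, and 4 lymphocyte and natural killer markers in place of 7. Matrix proteins became 23 higher and 4 lower in place of 18 and 6. Growth factors and receptors became 8 and 11 in place of 6 and 14, and classical oestrogen-response genes 8 and 3 in place of 6 and 5. The scan day left the counts close to these: with scan day as a term of the model 12646 probes were called, and among the arrays of the first scan day alone 12989.

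The largest rise was that of Crtac1, a secreted matrix protein of cartilage and other tissues, whose levels were 1.13, 0.84 and 0.58 with E2 and -5.21, -3.79 and -4.24 in vehicle. This was a change of 5.26 ± 0.76 (adjusted p = 0.00023), a fold of 38.4, and its other probe gave 5.10. The 3 E2 arrays lay close together and far above the vehicle arrays. Atp2c2, a calcium and manganese pump of the secretory pathway, followed with -0.24, -1.94 and -0.23 with E2 and -5.80, -5.90 and -5.40 in vehicle, a change of 4.90 ± 0.92 (adjusted p = 0.0011). The groups of Atp2c2 values were well apart, although E2 24 h replicate 2 lay below the other E2 arrays.

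Another set of strongly raised genes was not above background in any vehicle uterus, so that only a lower bound of the fold can be given. That bound sets the mean of the E2 arrays against, on each vehicle array, whichever is higher of that probe's signal and the dimmest signal that was still called well above background. Rhd, a membrane protein of the Rh blood group family, was at least 13.7-fold higher with E2 (adjusted p = 3.4e-06). The orphan receptor tyrosine kinase Ros1 was at least 7.35-fold higher (adjusted p = 0.0007), and Atp13a4, a cation-transporting ATPase, at least 6.54-fold (adjusted p = 5.4e-05). Tissue kallikreins also stood among the 20 largest rises, Klk1 with 4.37 ± 1.28 and 1.74 at another probe (adjusted p = 0.057 among arrays of the first scan day), and Klk1b5 with 4.50 ± 1.24, as did the hair keratin Krt86 with 4.41 ± 1.0. These belong to families of near-identical genes whose transcripts a probe may share, so the member that changed is uncertain.

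Further down the top 20, Aoc1, the diamine oxidase that degrades histamine and putrescine, had -1.71, -1.42 and -0.27 with E2 and -5.56, -5.83 and -4.41 in vehicle, and rose by 4.14 ± 1.08. Fam3b, a secreted cytokine-like protein, had -1.97, -2.65 and -1.79 with E2 and -6.25, -6.21 and -6.23 in vehicle, a rise of 4.10 ± 0.81. Mug1, a protease inhibitor of the α-macroglobulin family, rose by 4.08 ± 0.94. All 3 E2 arrays lay above all vehicle arrays for each of these genes, which was a condition for being among the 20.

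The largest fall was that of Inmt, an N-methyltransferase of tryptamine and related amines. Its levels were -1.97, -2.24 and -0.82 with E2 and 3.98, 4.64 and 4.16 in vehicle (probe on chromosome 6, 55134146 to 55134205, build mm7). Inmt fell by 5.94 ± 0.69 on the log2 scale (adjusted p = 5.9e-05), a fold of 61.5. Coch, the extracellular protein cochlin, had -5.36, -4.90 and -5.02 with E2 and 0.70, -0.11 and -0.21 in vehicle and fell by 5.22 ± 0.33 (adjusted p = 3.4e-06), and another probe of the gene gave -4.95. In both genes the groups were separated by more than 4 units.

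Igfbp3, a binding protein that holds IGF1 in the extracellular space, had 0.27, 0.52 and 0.68 with E2 and 3.78, 4.17 and 3.62 in vehicle, and fell by 3.37 ± 0.18 (adjusted p = 1.7e-06). Fgf20, a fibroblast growth factor, fell by 3.50 ± 0.59, with its probe not well above background on 2 of the 3 E2 arrays, and Clstn2, a calsyntenin, by 3.19 ± 0.37. The neurokinin B receptor gene Tacr3 was not well above background on any E2 array and was at least 2.57-fold lower (adjusted p = 0.00065), and the fatty acid elongase gene Elovl3 was at least 5.55-fold lower (adjusted p = 0.00077). Neither was called with normexp background (adjusted p = 0.14 and 0.16). Apod, a lipid-binding lipocalin, fell by 3.33 ± 0.38 to -4.09, -3.80 and -2.49 with E2, against 0.04, -0.36 and -0.09 in vehicle. Galnt15, an enzyme that starts O-linked glycans, fell by 3.32 ± 0.22 to 1.64, 1.55 and 1.92 with E2, against 4.79, 5.05 and 5.22 in vehicle, with an adjusted p of 3.4e-06. Mlana, a melanosome protein known from pigment cells, had -5.05, -5.71 and -5.61 with E2 and -2.06, -1.54 and -1.95 in vehicle and fell by 3.61 ± 0.34 (adjusted p = 2e-05), and S100a7a, a small calcium-binding protein of skin, fell by 3.30 ± 0.24.

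**Figure D2:**
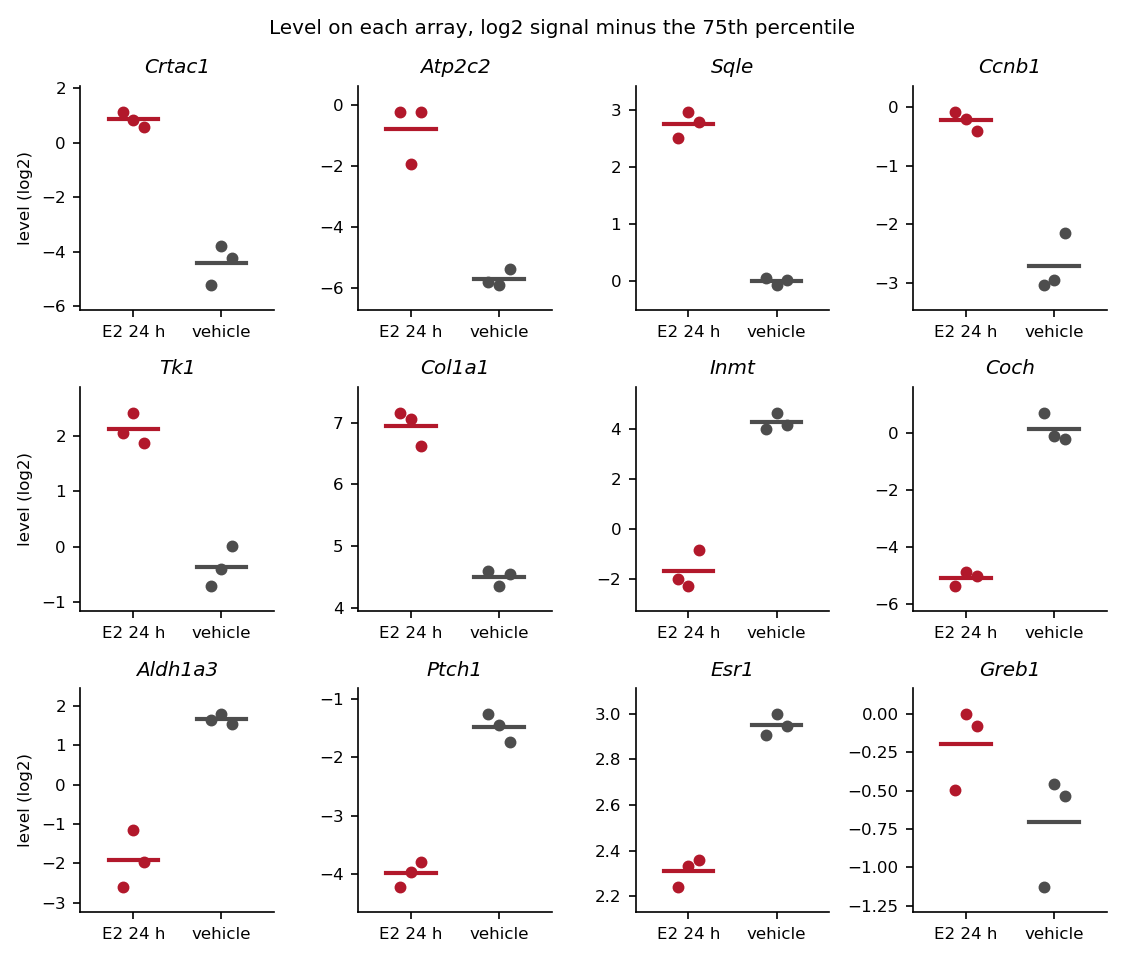
Level on each array (log2 signal minus the array's 75th percentile) of 12 genes, E2 24 h on the left and vehicle on the right of each panel; points are arrays and bars the mean of 3, and each panel has its own axis. The 3 E2 arrays lie apart from the 3 vehicle arrays in 11 panels, and Greb1 is the panel where the groups overlap.

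Genes of mitosis and cytokinesis rose together. Of 52 members measured, 52 rose, 51 of them by 2-fold or more, and 0 fell, against 21.8% of all genes that rose, and their median change was 1.87 against -0.01 over all genes. Ccnb1, cyclin B1, which activates CDK1 at entry into mitosis, had levels of -0.09, -0.20 and -0.41 with E2 and -3.02, -2.94 and -2.14 in vehicle (probe on chromosome 13, 97885282 to 97885341, build mm7). It rose by 2.47 ± 0.33 (adjusted p = 0.00015), and 2 other probes gave 1.97 and 2.12. Mki67, the proliferation antigen Ki-67, had 3.19, 3.25 and 2.68 with E2 and 1.10, 1.20 and 1.54 in vehicle and rose by 1.75 ± 0.26 (adjusted p = 0.00025). Cdk1 itself had 1.10, 1.23 and 1.07 with E2 and -0.73, -0.85 and -0.55 in vehicle, a rise of 1.84 ± 0.29. For all 3 genes the lowest E2 array lay above the highest vehicle array, and vehicle replicate 3 was the highest of its group.

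The rises reached across the steps of division. The largest beside that of Ccnb1 were those of the condensin subunit gene Ncapg (2.57 ± 0.49), of the ubiquitin-conjugating enzyme gene Ube2c, which acts with the anaphase-promoting complex (2.53 ± 0.35), and of the phosphatase gene Cdc25c, which activates CDK1 (2.40 ± 0.34). Birc5, the survivin subunit of the chromosomal passenger complex, rose by 2.33 ± 0.30, and Ccnb2, cyclin B2, had 3.35, 3.55 and 3.28 with E2 and 0.72, 0.93 and 1.55 in vehicle, a rise of 2.33 ± 0.29. The smallest change in the list was 0.57. The count was 51 with scan day in the model and 52 among arrays of the first scan day.

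Promoters of cell cycle genes carry known elements, and since these genes moved together the promoters given by RefSeq (build GRCm38.p6, 250 bases before to 50 after the start, the first listed for each gene) were searched for them. The CCAAT box, bound by NF-Y, was searched as CCAAT, and the cell cycle homology region, bound by the DREAM and B-MYB complexes, as TTTGAA, both on either strand. The mitosis list had promoters for 45 of its genes. Of these, 77.8% held a CCAAT box, against 37.9% of all 27025 promoters, and 66.7% held the cell cycle homology region, against 18.1%. The CCAAT box was also held by 62.5% of the 40 promoters of the replication list and by 88.2% of 17 promoters of the sterol list described below, where the cell cycle homology region was in 12.5% and 5.88%. Shown here are 2 promoters that hold both, Ccnb2 (chr9:70421505-70421804, minus strand) and Cdc20, which encodes an activator of the anaphase-promoting complex (chr4:118437294-118437593, minus strand), with both elements in capitals. They were chosen for their matches after the values were seen.
Ccnb2: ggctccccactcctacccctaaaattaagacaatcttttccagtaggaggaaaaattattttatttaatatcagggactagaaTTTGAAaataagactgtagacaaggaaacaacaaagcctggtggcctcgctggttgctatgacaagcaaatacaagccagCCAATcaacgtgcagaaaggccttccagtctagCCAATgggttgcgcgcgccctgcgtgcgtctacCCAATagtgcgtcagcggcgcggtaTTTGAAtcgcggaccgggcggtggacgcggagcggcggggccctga
Cdc20: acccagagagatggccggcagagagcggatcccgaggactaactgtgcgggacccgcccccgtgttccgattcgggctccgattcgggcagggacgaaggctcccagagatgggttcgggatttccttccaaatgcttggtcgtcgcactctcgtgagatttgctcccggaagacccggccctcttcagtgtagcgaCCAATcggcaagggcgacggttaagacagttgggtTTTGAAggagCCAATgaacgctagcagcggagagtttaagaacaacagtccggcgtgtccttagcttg
A match of letters is a description and not a shown binding site.

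Genes of the G1 to S transition and of DNA replication rose as well, by less. Of 51 members, 45 rose, 23 by 2-fold or more, 0 fell, and the median change was 0.87. Tk1, thymidine kinase, had 2.06, 2.41 and 1.87 with E2 and -0.70, -0.41 and 0.01 in vehicle, a rise of 2.48 ± 0.26 (adjusted p = 3.6e-05). Ccna2, cyclin A2, had 1.71, 1.82 and 1.57 with E2 and -0.67, -0.46 and -0.09 in vehicle and rose by 2.10 ± 0.29, and Mcm10, a replication initiation factor, rose by 1.89 ± 0.23. For Tk1 and Ccna2 the E2 arrays lay close together and well above the highest vehicle array. Pcna, the sliding clamp of DNA polymerases, rose by 0.68 ± 0.10, with 3.94, 3.87 and 3.99 with E2 and 3.30, 3.19 and 3.25 in vehicle. Mcm2, a subunit of the replicative helicase, had 1.22, 1.40 and 1.66 with E2 and 0.82, 0.78 and 0.88 in vehicle, a rise of 0.60 ± 0.20 (adjusted p = 0.026). Mcm2 was not called when E2 24 h replicate 2 or 3 or vehicle replicate 1 or 2 was left out, with adjusted p from 0.057 to 0.095. The loading factor gene Cdc6 rose by 1.33 ± 0.18, and the 6 members that were not called were Mcm7, Gins3, Pola2, Prim2, Rpa2 and Cdk2.

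E2F sites, through which E2F factors act on S phase genes, were searched in the same promoters as TTTGGCGC, TTTCCCGC or TTTCGCGC on either strand, where matches may overlap. They were found in 35.0% of the 40 promoters of the replication list and in 1.91% of all promoters. The promoters of the helicase subunit genes Mcm5 (chr8:75109259-75109558, plus strand) and Mcm6 (chr1:128359656-128359955, minus strand) are shown with the matches in capitals, chosen for them after the values were seen.
Mcm5: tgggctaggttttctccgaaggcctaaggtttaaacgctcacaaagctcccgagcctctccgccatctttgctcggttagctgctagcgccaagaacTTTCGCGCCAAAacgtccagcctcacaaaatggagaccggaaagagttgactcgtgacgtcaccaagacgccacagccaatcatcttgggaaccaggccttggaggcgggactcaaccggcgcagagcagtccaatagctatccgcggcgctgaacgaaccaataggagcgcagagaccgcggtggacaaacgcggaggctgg
Mcm6: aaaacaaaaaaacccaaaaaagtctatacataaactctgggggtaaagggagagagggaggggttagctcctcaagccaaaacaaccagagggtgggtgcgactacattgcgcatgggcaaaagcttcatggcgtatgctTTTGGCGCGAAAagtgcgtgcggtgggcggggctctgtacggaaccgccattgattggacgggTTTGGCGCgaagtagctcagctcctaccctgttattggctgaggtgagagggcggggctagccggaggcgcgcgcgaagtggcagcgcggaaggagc
Mcm5 had levels of 2.98, 3.02 and 3.01 with E2 and 1.30, 1.45 and 1.88 in vehicle and rose by 1.46 ± 0.14, and Mcm6 had 5.04, 4.92 and 4.95 with E2 and 3.90, 4.14 and 4.41 in vehicle and rose by 0.82 ± 0.14.

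Inhibitors of the cell cycle and p53 targets moved in both directions and mostly by little. Of 24 members, 3 rose (12.5%, against 21.8% of all genes) and 8 fell (33.3%, against 22.9%), and 1 fell by 2-fold or more. The falls numbered 1 under median scaling, 5 without E2 24 h replicate 1, 3 without E2 24 h replicate 2 and 4 without E2 24 h replicate 3 or vehicle replicate 1 or 2. The gene lower by 2-fold was Cdkn1c, which encodes the CDK inhibitor p57, with 2.33, 2.42 and 2.26 with E2 and 3.49, 3.48 and 3.65 in vehicle, a fall of 1.21 ± 0.16 (adjusted p = 0.00012). Cdkn1a, encoding p21, had a change of 0.29 ± 0.34 (adjusted p = 0.51), and its levels of -1.0, -0.49 and -1.74 with E2 and -1.44, -1.32 and -1.31 in vehicle overlapped. The 3 that rose were Rbl1, encoding the pocket protein p107 (0.57 ± 0.12), Sesn2 and Zmat3.

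Sterol synthesis and uptake had the highest median of the metabolic lists. Of 25 members, 24 rose, 20 by 2-fold or more, with a median change of 1.65. The squalene epoxidase gene Sqle had 2.51, 2.97 and 2.79 with E2 and 0.05, -0.06 and 0.02 in vehicle, a rise of 2.75 ± 0.29 (adjusted p = 3.2e-05). Each E2 array of Sqle lay far above each vehicle array. Fdps and Idi1, which make and isomerize the isoprenoid precursors, rose by 2.76 ± 0.24 and 2.67 ± 0.39 (1.18 at another probe of Fdps), and Mvd, the decarboxylase before them, by 2.50 ± 0.20. Cyp51, the lanosterol demethylase gene, rose by 2.28 ± 0.32. Stard4, which encodes a sterol carrier, was the member that was not called (0.56 ± 0.33, adjusted p = 0.19). It is named here after its value was seen. The list had a median of 1.88 under median scaling and 1.78 among arrays of the first scan day. SREBP2, the regulator of these genes, binds sterol regulatory elements. The letters TCACNCCAC, searched on both strands, were found in the promoter of 1 of 17 list genes, Hmgcs1, which encodes HMG-CoA synthase (chr13:119690101-119690400, plus strand, match in capitals), and in 1.22% of all promoters.
Hmgcs1: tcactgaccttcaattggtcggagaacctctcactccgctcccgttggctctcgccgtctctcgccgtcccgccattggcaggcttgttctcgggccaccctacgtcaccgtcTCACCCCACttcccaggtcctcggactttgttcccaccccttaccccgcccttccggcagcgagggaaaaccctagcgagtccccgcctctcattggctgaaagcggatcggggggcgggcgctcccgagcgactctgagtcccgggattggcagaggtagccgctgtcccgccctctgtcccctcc
Hmgcs1 had levels of 3.66, 4.04 and 3.86 with E2 and 2.14, 2.15 and 2.08 in vehicle, a change of 1.73 ± 0.19 (adjusted p = 4.3e-05).

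In fatty acid synthesis and desaturation 8 of 18 members rose (44.4%, against 21.8% of all genes) and 0 fell. The number higher was 5 without vehicle replicate 3 and 14 under median scaling. Fads2 and Fads1, the desaturases of polyunsaturated fatty acids, rose by 1.24 ± 0.14 and 1.22 ± 0.19. The levels of Fads2 were 0.95, 1.07 and 0.66 with E2 and -0.44, -0.28 and -0.31 in vehicle, with the groups apart. Scd1, the stearoyl-CoA desaturase, had 2.36, 1.13 and 3.80 with E2 and 1.40, 3.31 and 0.52 in vehicle, a change of 0.69 ± 0.97 (adjusted p = 0.59). On Scd1 the E2 array with the lowest and the vehicle array with the highest value were those with the lowest and highest summed adipocyte markers of their group. Me1, malic enzyme, had 0.75, 0.46 and 1.24 with E2 and -1.25, 0.35 and -1.16 in vehicle, a rise of 1.5 ± 0.47 (adjusted p = 0.02). Its call was lost without E2 24 h replicate 3, vehicle replicate 1 or vehicle replicate 3 (adjusted p = 0.069, 0.082 and 0.072). The call was also lost with scan day in the model (adjusted p = 0.053) and among arrays of the first scan day. The part of adipose tissue in these values was not tested.

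All 31 measured proteasome subunits rose, 8 by 2-fold or more, with a median change of 0.89. After quantile normalization 26 rose, with a median of 0.46. Psmb5, a catalytic subunit, had 3.92, 3.84 and 3.71 with E2 and 2.42, 2.40 and 2.85 in vehicle (change 1.27 ± 0.18, adjusted p = 0.00017), and Psmd14, the deubiquitinase of the lid, rose by 1.17 ± 0.10. In the list of endoplasmic reticulum folding 19 of 33 rose and 2 fell, Ddit3 and Trib3, the call of Trib3 being lost without vehicle replicate 2 or 3. After quantile normalization 13 rose and the median was 0.26, in place of 0.53. Among those that rose Sdf2l1, an ER chaperone cofactor, rose by 1.98 ± 0.28, the translocon subunit gene Sec61b by 1.74 ± 0.17, and Calr, the chaperone calreticulin, by 1.53 ± 0.12. Calr had 4.45, 4.61 and 4.49 with E2 and 2.79, 3.01 and 3.15 in vehicle. Hspa5, the main ER chaperone BiP, rose by 0.54 ± 0.20 (adjusted p = 0.039), a call that held only without E2 24 h replicate 2 when arrays were left out in turn (adjusted p between 0.043 and 0.14) and was lost after quantile normalization and with the slide as a random block. Ddit3, the stress-induced transcription factor CHOP, fell by 1.22 ± 0.15 to -0.09, 0.20 and -0.25 with E2, against 1.05, 1.17 and 1.30 in vehicle. Chaperones of cytosol and mitochondria followed with 17 of 29 members higher and 7 after quantile normalization, led by the mitochondrial co-chaperonin gene Hspe1 with 1.26 ± 0.11.

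Ribosome assembly changed less. Of 44 nucleolar and ribosome biogenesis genes 17 rose (38.6%) and 0 fell, and 26 rose under median scaling. Without E2 24 h replicate 3 or vehicle replicate 3, 1 member fell. The largest rises of these were Nhp2, of the H/ACA ribonucleoproteins, with 1.27 ± 0.26, and Fbl, the rRNA methyltransferase fibrillarin, with 1.07 ± 0.18, whose levels were 6.29, 6.14 and 5.91 with E2 and 4.97, 4.92 and 5.25 in vehicle. Npm1, nucleophosmin, had a change of 0.28 ± 0.12 (adjusted p = 0.072). Of 55 cytosolic ribosomal protein genes 13 rose (23.6%, near the 21.8% of all genes), with a median of 0.30. This list depended on the scaling, with a median of -0.06, 1 higher and 3 lower after quantile normalization, and 0.52 and 33 higher under median scaling. Without vehicle replicate 1 it had 5 members higher, without vehicle replicate 2 or E2 24 h replicate 2 6, and without E2 24 h replicate 1 7. Of 37 translation factors and tRNA synthetases 27 rose (17 after quantile normalization) and Eif2b3 and Eif5 fell, the call of 1 of these being lost when any array other than vehicle replicate 1 was left out. Among those that rose was the elongation factor gene Eif5a, with 4.96, 4.87 and 4.82 with E2 and 3.26, 3.39 and 3.6 in vehicle (1.47 ± 0.14).

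Of 41 subunits of the respiratory chain and ATP synthase, 40 rose (all but Sdha of complex II), 17 by 2-fold or more, and the median change was 0.90. Uqcrq of complex III rose by 1.54 ± 0.13 and Cox5a of complex IV by 1.47 ± 0.17 at their brightest probes, where other probes gave -0.18 and -0.94, and Ndufs1 of complex I had 4.09, 4.14 and 3.91 with E2 and 3.25, 3.29 and 3.23 in vehicle (0.79 ± 0.09). Atp5b, the catalytic β subunit of ATP synthase, had 7.33, 7.30 and 7.07 with E2 and 6.20, 6.19 and 6.42 in vehicle and rose by 0.96 ± 0.11. Among 21 genes of glucose uptake, glycolysis and the pentose phosphate pathway 16 rose and 1 fell, Pfkp. The median was 0.94, and 0.55 with 13 higher after quantile normalization. Without E2 24 h replicate 3, 2 fell. G6pdx, glucose-6-phosphate dehydrogenase, had 3.80, 3.76 and 3.87 with E2 and 2.07, 2.17 and 2.17 in vehicle, a rise of 1.67 ± 0.18 (adjusted p = 4.4e-05). Gapdh, often used as a reference gene, rose by 1.45 ± 0.14, and Ldha, a lactate dehydrogenase subunit, by 1.19 ± 0.15. The glucose transporter gene Slc2a1 and the hexokinase gene Hk2 had changes of 0.11 ± 0.15 and -0.10 ± 0.34 (adjusted p = 0.6 and 0.84).

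Of 26 genes of amino acid transport, serine and one-carbon synthesis 13 rose (50%, against 21.8% of all genes) and 1 fell (3.85%, against 22.9%). Psat1, of serine synthesis, had 2.00, 1.8 and 1.90 with E2 and 0.41, 0.44 and 0.52 in vehicle, a rise of 1.44 ± 0.10 (adjusted p = 4.9e-06), and Mthfd1l, a mitochondrial folate enzyme, rose by 1.59 ± 0.15. The fall was that of Slc6a6, the taurine transporter, by 1.28 ± 0.19.

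**Figure D3:**
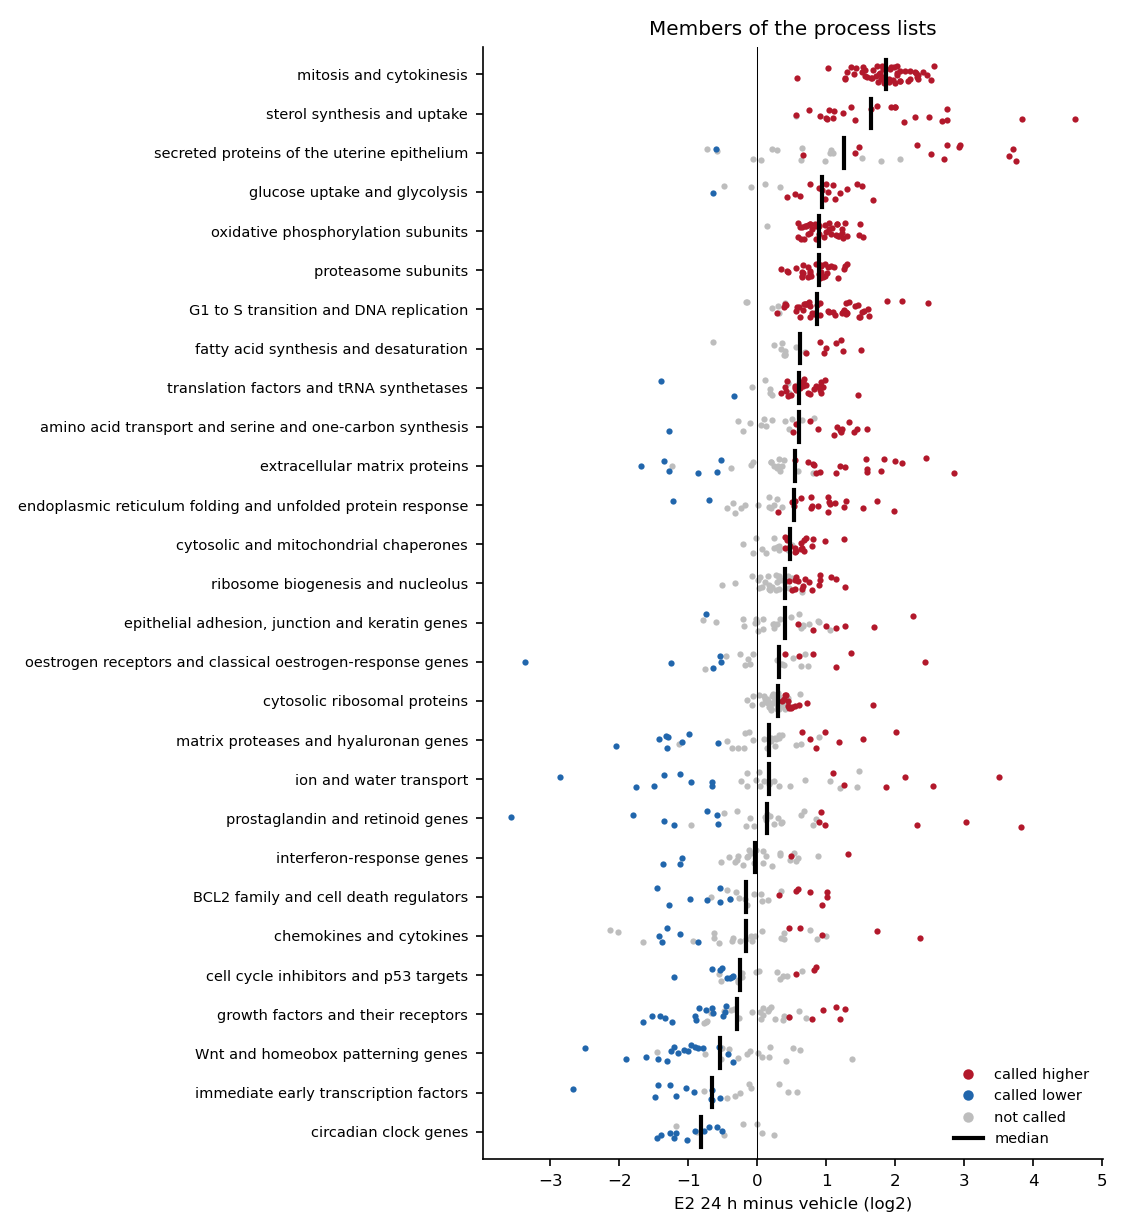
Change from vehicle (E2 24 h minus vehicle, log2) of every tested member of the 28 process lists, ordered by the median; grey points are members that were not called, coloured points members that were, and black bars the median of a list. Mitosis and sterol genes have the highest medians and circadian clock genes the lowest.

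Of 26 receptors and classical oestrogen-response genes 6 rose (23.1%) and 5 fell (19.2%), shares near the 21.8% and 22.9% of all genes. Esr1, which encodes ERα, fell by 0.64 ± 0.11 to 2.24, 2.33 and 2.36 with E2, against 2.91, 3.00 and 2.95 in vehicle (adjusted p = 0.00064), while its other probe gave 0.05. The progesterone receptor gene Pgr had -1.57, -1.26 and -0.97 with E2 and -1.77, -2.22 and -1.89 in vehicle. Every E2 array was above every vehicle array, but the change of 0.70 ± 0.33 was not called (adjusted p = 0.1, 95% interval -0.02 to 1.41). Greb1, an oestrogen-induced coregulator, had -0.50, 0.00 and -0.08 with E2 and -1.13, -0.46 and -0.53 in vehicle, with overlap, and a change of 0.51 ± 0.47 (adjusted p = 0.4, 95% interval -0.51 to 1.54). Pgr was called under median scaling, with only the 6 arrays compared, with scan day in the model, among arrays of the first scan day and without the E3 24 h arrays, and Greb1 among arrays of the first scan day.

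Among insulin-like growth factor genes, Igf1, a stromal growth factor of the uterus, had 2.59, 2.82 and 2.51 with E2 and 1.24, 1.83 and 1.44 in vehicle, a rise of 1.14 ± 0.19 (adjusted p = 0.00055), although 2 other probes gave -0.12 and 1.12. Its receptor gene Igf1r had 0.47, 0.50 and 0.60 with E2 and 2.22, 2.12 and 1.81 in vehicle and fell by 1.53 ± 0.15 (adjusted p = 2.4e-05), and the insulin receptor gene Insr fell by 1.24 ± 0.25. Of the binding proteins Igfbp3 fell, as described above, and Igfbp5 rose by 1.28 ± 0.30. Ramp3, which pairs with the calcitonin receptor-like receptor to form an adrenomedullin receptor, had 3.81, 3.43 and 3.53 with E2 and 0.67, 1.25 and 1.55 in vehicle, a rise of 2.43 ± 0.66 (adjusted p = 0.0099).

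In the whole list of growth factors and their receptors 6 of 42 rose and 14 fell (33.3%, against 22.9% of all genes). Fgfr2, a fibroblast growth factor receptor, fell by 1.41 ± 0.21, and the ligand genes Bmp2 and Bmp4 by 1.65 ± 0.25 and 1.34 ± 0.17. Bmp2 had -4.32, -4.31 and -4.02 with E2 and -2.48, -2.32 and -2.90 in vehicle, with no overlap. Lifr, a receptor subunit for the implantation cytokine LIF, rose by 1.20 ± 0.23 at its brightest probe, while its 4 other probes ranged from -0.65 to 0.53.

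Immediate early transcription factor genes, the fast responders to oestrogen and other signals, were lower than in vehicle or not changed in the test. Of 20 members 0 rose and 11 fell, with a median of -0.66. Under median scaling 1 rose and 9 fell, and across all alternatives 0 to 1 rose and 9 to 13 fell. Egr3, a zinc finger factor, had -6.66, -5.73 and -6.09 with E2 and -3.49, -3.25 and -3.71 in vehicle, a fall of 2.68 ± 0.30 (adjusted p = 5.3e-05). Egr1 had 0.56, 0.61 and 0.18 with E2 and 1.79, 2.27 and 1.76 in vehicle and fell by 1.49 ± 0.20 (adjusted p = 0.00015), and Jun, a subunit of AP-1, fell by 1.03 ± 0.11. The partner gene Fos had -3.07, -3.13 and -2.60 with E2 and -2.72, -1.61 and -3.14 in vehicle, values that overlapped, and a change of -0.44 ± 0.41 (adjusted p = 0.4).

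Secreted proteins of the epithelium held rises and genes with wide spread. Of 28 members 12 rose (42.9%, against 21.8% of all genes), 11 by 2-fold or more, and 1 fell (3.57%, against 22.9%). Muc1, a cell surface mucin, had 0.47, -0.36 and 0.79 with E2 and -2.66, -3.28 and -1.41 in vehicle, a rise of 2.75 ± 0.45 (adjusted p = 0.00049), with 2.66 at another probe. Lcn2, an iron-sequestering lipocalin, had 1.0, 1.26 and 2.65 with E2 and -1.46, -1.54 and -0.90 in vehicle and rose by 2.94 ± 0.87 (adjusted p = 0.016), a call lost without E2 24 h replicate 3 (change 2.43, adjusted p = 0.063). Ltf, lactoferrin, the classical oestrogen-induced secretory protein of the mouse uterus, had 3.58, 4.30 and 5.72 with E2 and 3.02, 2.53 and 4.78 in vehicle. Vehicle replicate 3 was above E2 replicates 1 and 2 for Ltf, and the change of 1.10 ± 0.93 was not called (adjusted p = 0.36, 95% interval -0.91 to 3.1). C3, complement component 3, had a change of 0.64 ± 0.46 (adjusted p = 0.28, 95% interval -0.36 to 1.63).

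Small proline-rich proteins of the cornified envelope rose in several members: Sprr2f by 3.75 ± 0.89, Sprr2d by 3.71 ± 0.66 and Sprr1a by 3.65 ± 0.68. Sprr2f had 5.17, 4.80 and 5.72 with E2 and 0.87, 2.14 and 1.43 in vehicle. The Sprr2 genes are close paralogs, so which of them a probe reports is uncertain, and Sprr2a1 had 0.05 at its brightest probe and 4.70 at another. Muc4, a membrane mucin, rose by 2.93 ± 0.77, and Cfi, complement factor I, by 2.71 ± 0.54.

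Genes of epithelial adhesion and keratins changed in fewer members, 7 of 32 higher (21.9%, a share near that of all genes) and 1, Tjp1, lower. The number higher was 13 under median scaling, 4 after quantile normalization or without E2 24 h replicate 1, and 3 without E2 24 h replicate 3 or vehicle replicate 2. Gjb2, the gap junction protein connexin 26, had 2.25, 2.36 and 2.94 with E2 and 0.04, 0.36 and 0.40 in vehicle, a rise of 2.25 ± 0.62 (adjusted p = 0.011), and Krt19 rose by 1.14 ± 0.23. The summed level of the epithelial markers was 8.31, 7.87 and 8.19 with E2 and 7.41, 7.22 and 7.66 in vehicle, with 3 of 10 members called higher (Krt7, Krt8 and Krt19), 7 under median scaling and 1 after quantile normalization. In whole tissue, more cells of a type and more RNA per cell cannot be told apart.

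Of 31 transporters of ions and water 6 were higher (19.4%) and 8 lower (25.8%), near the shares of all genes (21.8% and 22.9%), and 10 higher under median scaling. Clca1, a secreted regulator of chloride channels, had 6.88, 6.57 and 6.93 with E2 and 3.59, 2.62 and 3.64 in vehicle, a rise of 3.51 ± 0.66 (adjusted p = 0.0011), and the epithelial calcium channel gene Trpv6 had 2.34, 1.73 and 2.60 with E2 and -0.56, -0.51 and 0.09 in vehicle, a rise of 2.55 ± 0.61. Car2, carbonic anhydrase 2, rose by 2.14 ± 0.51. In the other direction, Scnn1b, a subunit of the epithelial sodium channel, had -2.43, -2.04 and -2.67 with E2 and -0.63, -0.96 and -0.28 in vehicle, a fall of 1.76 ± 0.21 (adjusted p = 8e-05). Atp6v0d2, a subunit of the vacuolar proton pump, fell by 2.86 ± 0.64, with its probe likewise not well above background on 2 of the 3 E2 arrays.

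Of 31 prostaglandin and retinoid genes 6 rose (19.4%) and 7 fell (22.6%), against 21.8% and 22.9% of all genes. The falls numbered 3 without E2 24 h replicate 1 or vehicle replicate 1, under median scaling and with scan day in the model, and 4 without E2 24 h replicate 2, E2 24 h replicate 3 or vehicle replicate 2. Crabp1, a cytosolic retinoic acid-binding protein, had -0.54, 0.02 and -0.80 with E2 and -5.04, -4.05 and -3.71 in vehicle, a rise of 3.83 ± 0.45 (adjusted p = 6.7e-05), and Crabp2, its paralog, was at least 4.58-fold higher than in vehicle, where its probe was not well above background (adjusted p = 0.0049). Dhrs9, a retinol dehydrogenase, rose by 3.04 ± 0.66. Aldh1a3, which makes retinoic acid, had -2.59, -1.16 and -1.98 with E2 and 1.65, 1.8 and 1.55 in vehicle and fell by 3.57 ± 0.39 (adjusted p = 4.3e-05), and Aldh1a1, another such enzyme, fell by 1.35 ± 0.22. For Crabp1 and Aldh1a3 the groups were far apart. The cyclooxygenase genes Ptgs1 and Ptgs2 had changes of 0.30 ± 0.24 and -0.96 ± 0.61 (adjusted p = 0.34 and 0.22).

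Of 39 matrix proteins 18 rose (46.2%, against 21.8% of all genes), 12 by 2-fold or more, and 6 fell (15.4%, against 22.9%). Col1a1, the α1 chain of type I collagen, had 7.16, 7.06 and 6.62 with E2 and 4.59, 4.36 and 4.55 in vehicle, a rise of 2.45 ± 0.29 (adjusted p = 7.2e-05), and other probes gave 2.96 to 3.27. Col3a1 had 6.60, 6.71 and 6.72 with E2 and 5.14, 4.78 and 4.59 in vehicle (1.84 ± 0.28), with other probes from 0.18 to 1.72. Col6a2, of the beaded type VI collagen, rose by 2.86 ± 0.21 (1.02 at another probe), Col5a1 by 2.00 ± 0.15, and Sparc, a collagen-binding glycoprotein, by 1.59 ± 0.18. Against this direction, Thbs1, thrombospondin 1, had -2.24, -2.46 and -2.14 with E2 and -0.59, -0.62 and -0.55 in vehicle and fell by 1.69 ± 0.24 (adjusted p = 0.0002). Fn1, fibronectin, had a change of 0.20 ± 0.13 (adjusted p = 0.25).

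Of 10 markers of stroma and fibroblasts 4 rose, Col1a1, Col3a1, Vim and Lum, and 3 fell, Dcn, Pdgfra and Hoxa10. Dcn fell by 0.59 ± 0.15 (adjusted p = 0.0068), with an adjusted p of 0.087 under median scaling. The falls of the list numbered 0 under median scaling, and 1 without E2 24 h replicate 1, vehicle replicate 1 or vehicle replicate 2. Among proteases and their inhibitors 7 of 36 rose (19.4%) and 8 fell (22.2%), against 21.8% and 22.9% of all genes, and 12 rose under median scaling. Timp1, a metalloproteinase inhibitor, had 1.76, 1.95 and 1.51 with E2 and -0.11, -0.33 and -0.36 in vehicle, a rise of 2.01 ± 0.21 (adjusted p = 3e-05), whereas the inhibitor gene Timp3 fell by 1.33 ± 0.18. Mmp10, stromelysin 2, fell by 2.05 ± 0.30, and Plat, tissue plasminogen activator, by 1.43 ± 0.18.

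Of 34 patterning genes of the Wnt and hedgehog pathways and homeobox genes 0 rose and 17 fell (50%, against 22.9% of all genes), 10 by 2-fold or more, with a median of -0.54. Ptch1, the hedgehog receptor and a target of the pathway, had -4.21, -3.96 and -3.79 with E2 and -1.25, -1.45 and -1.74 in vehicle, a fall of 2.50 ± 0.29 (adjusted p = 5.5e-05), and the ligand gene Ihh, of the luminal epithelium, fell by 1.25 ± 0.33 (adjusted p = 0.008, and 0.054 among arrays of the first scan day). Wnt2, a Wnt ligand, had -1.72, -2.09 and -2.16 with E2 and -0.36, -0.56 and -0.21 in vehicle and fell by 1.61 ± 0.16, and Wnt7a, a ligand of the epithelium, fell by 1.01 ± 0.27. Axin2, a feedback target of β-catenin, had -0.53, -0.09 and -0.23 with E2 and 1.17, 1.0 and 0.92 in vehicle, a fall of 1.31 ± 0.18 (adjusted p = 0.00019). Secreted inhibitors of the pathway fell too, Wif1 by 1.91 ± 0.43 and Dkk2 by 1.44 ± 0.17. Wnt4 and Wnt5a were not called, with changes of -0.75 ± 0.40 and 0.42 ± 0.20 (adjusted p = 0.14 and 0.11). The highest change in the list, 1.37, was not called. Under median scaling 14 members fell and 2 rose. Across all alternatives 14 to 20 fell and 0 to 2 rose. The rises numbered 2 also after quantile normalization and with only the 6 arrays compared, and 1 without vehicle replicate 3 or with scan day in the model.

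Circadian clock genes were lower in 11 of 18 and higher in 0, with a median of -0.82. Arntl, which encodes the activator BMAL1, had -1.10, -1.78 and -1.37 with E2 and -0.43, 0.16 and -0.36 in vehicle and fell by 1.21 ± 0.24 (adjusted p = 0.0014), and Per2 and Cry1, which encode repressors, fell by 1.18 ± 0.22 and 1.27 ± 0.24 (-0.33 and -1.03 at other probes). Dbp, an output gene that peaks at another phase than Arntl, had 5.14, 5.95 and 5.17 with E2 and 5.51, 5.16 and 5.61 in vehicle, values that overlapped (-0.01 ± 0.22, adjusted p = 0.98). Because the time of day of the vehicle collection is not given, time of day and treatment cannot be told apart here.

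Of 26 regulators of cell death 7 were higher and 7 lower, 26.9% each way against 21.8% and 22.9% of all genes (3 lower under median scaling, and 4 higher among arrays of the first scan day). Bcl2, the antiapoptotic founder of its family, had 1.25, 1.47 and 0.92 with E2 and 2.58, 2.78 and 2.65 in vehicle, a fall of 1.46 ± 0.14 (adjusted p = 2.2e-05), with -2.44 to -1.76 at its other probes. The proapoptotic gene Bax rose by 1.0 ± 0.15 and Bak1 by 1.01 ± 0.20, where another probe of Bak1 gave 0.23. The proapoptotic gene Bcl2l11 fell by 0.97 ± 0.14, where 2 other probes gave -0.38 and 0.04.

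Immune genes changed in few members. Of 28 interferon-response genes 2 rose (7.14%, Oas1a and Ifi35) and 3 fell (10.7%, Rsad2, Ifit2 and Cxcl10), against 21.8% and 22.9% of all genes. The sign of the list's median of -0.03 was reversed under 6 of 19 alternatives. Among these were arrays of the first scan day (0.05), median scaling (0.19), and the fits without E2 24 h replicate 2 (0.17) or vehicle replicate 3 (0.13). The rises numbered 0 without E2 24 h replicate 1 or 3 or vehicle replicate 1 or 2, and 1 without E2 24 h replicate 2. They numbered 0 with the slide as a random block, with the replicate number as a block or with no filter on dim probes. Rsad2, an antiviral enzyme, fell by 1.10 ± 0.29. Of 31 chemokines and cytokines 5 rose and 5 fell, 16.1% each way against 21.8% and 22.9% of all genes. The counts became 3 and 3 without E2 24 h replicate 2, and 3 fell without vehicle replicate 2. Those that rose were Ccl7, Ccl12, Ccl25, Ccl28 and Csf1, and those that fell Ccl3, Ccl17, Cxcl12, Csf2 and Tslp. Ccl7, a monocyte attractant, had -1.22, -1.37 and -1.54 with E2 and -3.40, -2.69 and -3.26 in vehicle, a rise of 1.74 ± 0.22 (adjusted p = 0.0001), and the epithelial chemokine gene Ccl28 rose by 2.37 ± 0.63. Tslp, an epithelial cytokine, fell by 1.31 ± 0.31. The eosinophil chemokine gene Ccl11 had a change of 0.99 ± 0.47 (adjusted p = 0.1).

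Markers of blood, vessel and immune cells moved with the treatment in some lists. Of 13 lymphocyte and natural killer cell markers 7 fell (54%, against 22.9% of all genes) and 0 rose. Their summed level was 0.45, 0.85 and 1.47 with E2 and 1.83, 2.39 and 1.95 in vehicle. Nkg7, a granule protein of cytotoxic cells, had -2.68, -1.98 and -1.32 with E2 and -0.90, -0.13 and -0.21 in vehicle, a fall of 1.58 ± 0.38 (adjusted p = 0.0052). The count was unstable: 1 member fell without E2 24 h replicate 1, 2 without E2 24 h replicate 2 or vehicle replicate 2, 3 without vehicle replicate 3 and 4 without vehicle replicate 1, and 2 among arrays of the first scan day. Of 10 endothelial markers 6 fell (60%, against 22.9% of all genes) and 0 rose. The falls numbered 3 without E2 24 h replicate 2 or vehicle replicate 2, and 2 under median scaling. The summed levels of these markers were 4.82, 4.77 and 4.70 with E2 and 5.25, 5.40 and 5.38 in vehicle. Cldn5, an endothelial tight junction protein, fell by 1.07 ± 0.18, and Kdr, the receptor for VEGF, had 0.85, 0.82 and 0.95 with E2 and 1.51, 1.74 and 1.59 in vehicle, a fall of 0.74 ± 0.13 (adjusted p = 0.00065).

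Smooth muscle markers were higher in 4 of 12 (33.3%, against 21.8% of all genes), which were Acta2, Cnn1, Actg2 and Des. The number higher was 7 under median scaling, and 3 after quantile normalization and among arrays of the first scan day. The median of the list was 0.45, and 0.03 after quantile normalization. Acta2 was not called after quantile normalization, among arrays of the first scan day, or when E2 24 h replicate 1 or 2 or vehicle replicate 1 was left out. Actg2, enteric smooth muscle actin, rose by 1.46 ± 0.22 and Des, desmin, by 1.39 ± 0.21. Their summed level was 10.10, 9.92 and 9.39 with E2, against 8.85, 9.09 and 9.44 in vehicle, and overlapped between the groups. Of 12 macrophage and monocyte markers Cd14, a lipopolysaccharide coreceptor, rose by 1.24 ± 0.36 and the others were not called, the defining markers Adgre1 and Csf1r having changes of -0.46 ± 0.30 and -0.46 ± 0.27. Of 11 granulocyte and mast cell markers 1 rose (9.09%, against 21.8% of all genes) and 0 fell. The list had a median of -0.84 and changes from -1.91 to 0.95, and 0 to 2 members were lower across the alternatives. The member that rose, Mpo, myeloperoxidase, had the highest change (0.95 ± 0.34, adjusted p = 0.039). Its call was lost without E2 24 h replicate 2, vehicle replicate 1 or vehicle replicate 3 (adjusted p = 0.16, 0.13 and 0.11). It was also lost with the slide as a random block, with no filter on dim probes or with only the 6 arrays. Of 3 erythrocyte markers 2 rose, Hba-a1 and Alas2. The α-globin gene Hba-a1 had 4.67, 5.12 and 5.51 with E2 and 3.83, 4.29 and 3.56 in vehicle, a rise of 1.21 ± 0.26 (adjusted p = 0.0024). How much these cell types contribute to the other lists was not tested.

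**Figure D4:**
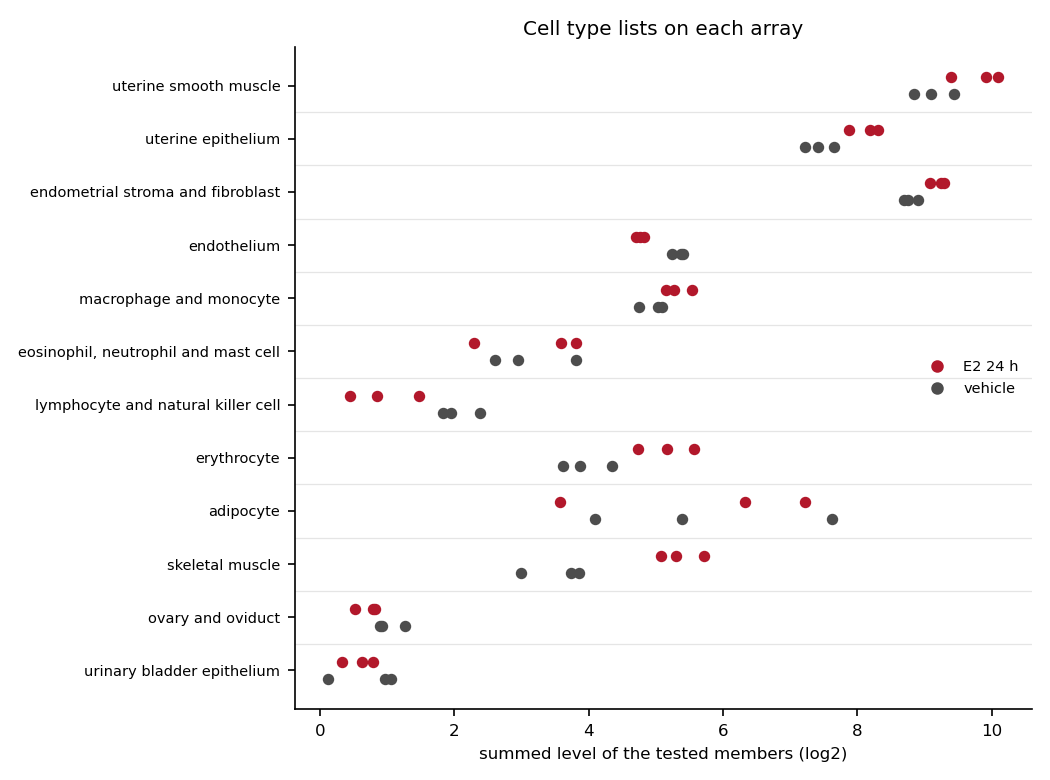
Summed level (log2 of the sum of the linear levels, each relative to the array's 75th percentile) of the tested members of 12 cell type lists on each array, E2 24 h above vehicle in each row; points are arrays. The sums of the lymphocyte, endothelium and ovary lists are lower on all E2 arrays than on all vehicle arrays. Those of the epithelium, stroma, macrophage, erythrocyte and skeletal muscle lists are higher, and that of the adipocyte list spreads widely in both groups. A sum weighs its brightest members most: in the stroma list 3 of 10 members were called lower, and in the macrophage list 11 of 12 were not called.

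To show where the late profile differs from the early one, E2 at 24 h was set against E2 at 2 h, at the same dose; in this difference the vehicle arrays have no part. Of 19880 genes tested, 10545 differed (53%), 5987 higher (30.1%) and 4558 lower (22.9%) at 24 h. Immediate early genes were lower at 24 h in 19 of 20 members and higher in 0. Fos had -3.07, -3.13 and -2.60 at 24 h and 2.80, 3.05 and 2.88 at 2 h, a difference of -5.84 ± 0.41 (adjusted p = 6.3e-07). Cdkn1a had -1.0, -0.49 and -1.74 at 24 h and 2.54, 2.73 and 2.39 at 2 h, a difference of -3.63 ± 0.34. Greb1 had -0.50, 0.00 and -0.08 at 24 h and 2.98, 3.38 and 3.05 at 2 h (-3.33 ± 0.47), and Pgr had -1.57, -1.26 and -0.97 at 24 h and -0.02, 0.02 and 0.14 at 2 h (-1.31 ± 0.33). For all 4 genes each 24 h array was below each 2 h array, and 62.9% of all genes tested had no overlap between these groups. In the other direction, 51 of 52 mitotic genes were higher at 24 h and 1, Mad2l1, was lower, with Ccnb1 at 2.43 ± 0.33 and Mki67 at 1.92 ± 0.26. Muc1 was higher at 24 h by 3.09 ± 0.45 (adjusted p = 0.00011) and Trpv6 by 5.0 ± 0.61 (adjusted p = 2.9e-05). Ribosome biogenesis genes were lower at 24 h in 24 of 44 and higher in 5. Pcna had a difference of 0.00 ± 0.10 (adjusted p = 0.99), and Igf1 of -0.02 ± 0.19 (adjusted p = 0.95).

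E3 at the same dose and time was the other neighbour. With only the 6 arrays of E2 24 h and E3 24 h in the fit, 573 probes differed, in place of 4616 of 28247 with all arrays (16.3%). Without the E3 24 h arrays, the fit of E2 24 h against vehicle called 14917 probes in place of 13506. Of the 4616, 2739 were higher and 1877 lower with E2, which became 3215 and 1342 under median scaling. The count without E2 24 h replicate 1 was 2597, without E2 24 h replicate 2 it was 2827, and without E3 24 h replicate 3 it was 2870. Of 18750 genes 3181 differed (17.0%), 1836 higher (9.79%) and 1345 lower (7.17%) with E2. Replication genes were higher with E2 in 48 of 51, mitotic genes in 44 of 52 and sterol genes in 23 of 25, and 0 members of these lists were lower. Tk1 had 2.06, 2.41 and 1.87 with E2 and 0.26, -0.74 and -0.33 with E3, a difference of 2.38 ± 0.26 (adjusted p = 0.00018), and Sqle had 2.51, 2.97 and 2.79 with E2 and 0.74, -0.42 and -0.14 with E3, a difference of 2.69 ± 0.29 (adjusted p = 0.00015). Inmt had -1.97, -2.24 and -0.82 with E2 and 3.08, 5.27 and 1.8 with E3, a difference of -5.06 ± 0.69, and Coch differed by -3.99 ± 0.33. Pcna differed by 1.0 ± 0.10 (adjusted p = 8.9e-05), Mcm2 by 1.46 ± 0.20, Mki67 by 0.94 ± 0.26 (adjusted p = 0.026) and Ccnb1 by 1.10 ± 0.33 (adjusted p = 0.041). With scan day as a term of the model, adjusted p was 0.086 for Mki67 and 0.1 for Ccnb1, and among arrays of the first scan day or with only the 6 arrays neither was called. Ccnb1 was also lost with the slide as a random block (adjusted p = 0.058). Mki67 was not called when replicate 1 or 2 of E2 24 h, or 2 or 3 of E3 24 h, was left out (adjusted p from 0.069 to 0.09), and neither was Ccnb1 without any one of the 3 E2 24 h arrays or of those 2 E3 arrays (adjusted p from 0.064 to 0.15). Muc1 and Lcn2 were not called, with differences of 0.71 ± 0.45 (95% interval -0.26 to 1.68) and 0.95 ± 0.87 (-0.94 to 2.83), and neither was Esr1 (-0.07 ± 0.11, 95% interval -0.31 to 0.17). In 30% of all genes tested the 3 E2 arrays did not overlap the 3 E3 arrays. Lcn2 differed by 2.33 without E3 24 h replicate 2 (adjusted p = 0.0049).

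**Figure D5:**
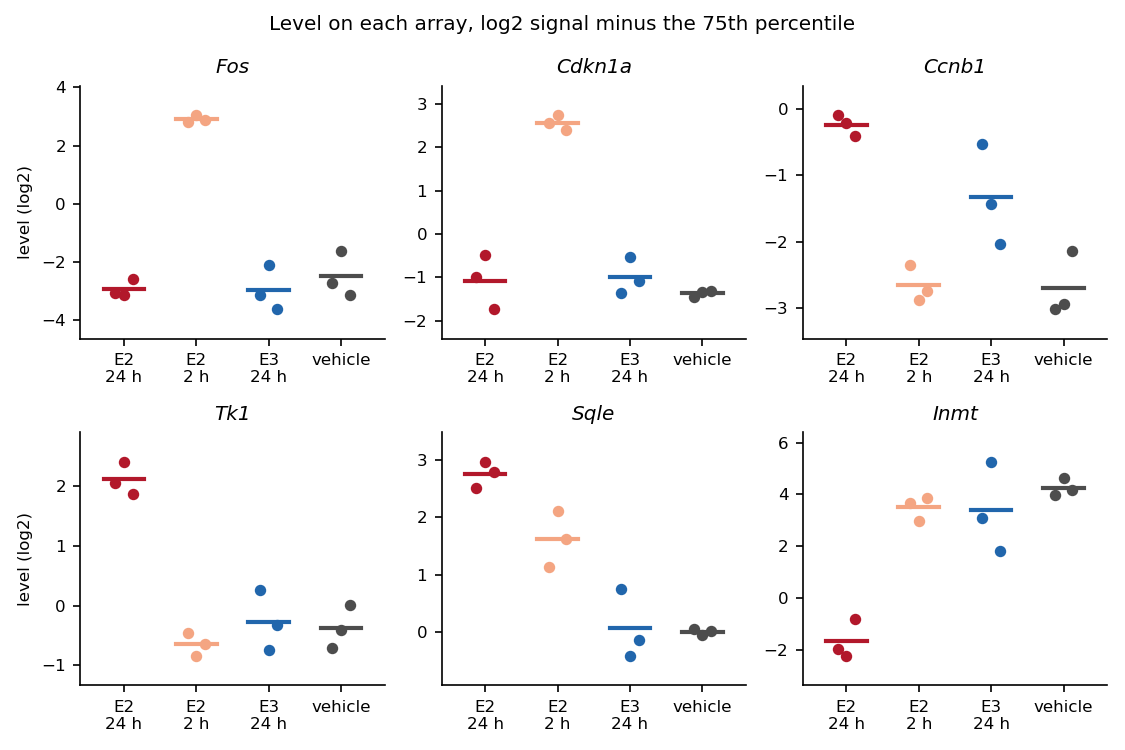
Level on each array (log2 signal minus the array's 75th percentile) of 6 genes in E2 24 h, E2 2 h, E3 24 h and vehicle; points are arrays and bars the mean of 3. Fos and Cdkn1a are high at 2 h and near vehicle at 24 h, Ccnb1 and Tk1 are highest with E2 at 24 h, and Inmt is lowest there.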

How the data were processed

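One-colour intensity files of 15 Agilent arrays were used. Per the file headers, the deposited intensity values came from Feature Extraction 9.5.3.1 (9.5 in the submitters' processing notes), which had subtracted background and detrended each array. The deposited series table held the same values. No scaling between arrays was found. Here log2 processed signal of non-control probes was centred on each array's 75th percentile, spots of a probe were averaged, and limma 3.58.1 (R 4.3.3, 10 residual degrees of freedom) fitted 1 mean per group over all 15 arrays, with Benjamini-Hochberg adjustment over the probes tested. The script was tested on simulated data. Probes were named through RefSeq accessions, symbols or the files' names, and probe positions are those of the files (mm7).

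Named genes were the 20 largest rises and falls, and the first 3 and up to 6 most changed called members of each list. They also included 10 differences each way from the other 2 groups, 14 fixed genes and cell type markers. The 20 largest changes and the 10 differences were taken only from called genes whose groups did not overlap. Mcm5, Mcm6, Cdc20, Hmgcs1 and members that account for small counts were chosen after their values were seen. The members and lists were chosen with earlier results of these data known. Alternatives changed scaling, background, filter, threshold, arrays, variance model, slide, scan day and replicate block. Some genes that these rules name are not reported here.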

Additional observations from a re-analysis of the deposited data

Results flagged for a closer look

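The genes here differed between E2 at 24 h and another oestrogen group by limma's test of that difference in the model of all 15 arrays, with Benjamini-Hochberg adjustment over all probes tested (n = 3 arrays a group). Between E2 at 24 h and E2 at 2 h, Fos (-5.84 ± 0.41), Cdkn1a (-3.63 ± 0.34), Greb1 (-3.33 ± 0.47) and Pgr (-1.31 ± 0.33, adjusted p = 0.0048) were lower at 24 h. Trpv6 (5.0 ± 0.61), Muc1 (3.09 ± 0.45), Ccnb1 (2.43 ± 0.33) and Mki67 (1.92 ± 0.26) were higher at 24 h, and adjusted p was 0.00011 or less for these and the first 3. Between E2 and E3, both at 24 h, Sqle (2.69 ± 0.29), Tk1 (2.38 ± 0.26), Mcm2 (1.46 ± 0.20), Ccnb1 (1.10 ± 0.33, adjusted p = 0.041), Pcna (0.998 ± 0.10) and Mki67 (0.945 ± 0.26, adjusted p = 0.026) were higher with E2. The calls of Ccnb1 and Mki67 were lost with scan day as a term of the model and when some single arrays were left out. Inmt (-5.06 ± 0.69, adjusted p = 0.00063) and Coch (-3.99 ± 0.33, adjusted p = 5e-05) were lower with E2. In each of these differences all 3 E2 24 h arrays lay on the same side of all 3 arrays of the other group, which also held for 62.9% of all genes against E2 at 2 h and for 30% against E3 at 24 h. What underlies the differences was not tested.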

How the results depend on the processing

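Under the alternatives run for E2 at 24 h against vehicle, 10789 to 14917 probes were called, beside 13506, except where the rule itself was stricter or fewer probes were tested. With 1 probe a gene 8754 genes were called (4477 lower), at an adjusted p under 0.01 there were 8833 probes (4054 higher, 4779 lower), and at 2-fold or more 4886 (1766 higher, 3120 lower). The array median as scale gave 9023 higher and 4854 lower. Leaving out each array in turn gave 10789 to 12456. The fit without the E3 24 h arrays, 14917, was chosen after seeing the data. Normexp background gave 11736, quantile normalization 13032, the slide as a random block 11866, and scan day as a term 12646. Against E2 at 2 h (15980), 1 probe a gene gave 10569 (4573 lower) and 2-fold or more 7147 (3453 higher, 3694 lower). Against E3 at 24 h (4616), the 6 arrays alone gave 573 (329 higher, 244 lower), an adjusted p under 0.01 gave 1762 (1118 and 644) and 2-fold or more 1224 (613 and 611). Leaving out each array there gave 2597 to 5791 (1536 to 3227 higher, 1061 to 2564 lower), lowest without E2 24 h replicate 1. The cause of these moves was not tested.

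At 2-fold or more the lists held fewer members: replication 23 higher, respiratory chain 17, proteasome 8, glycolysis 8, and 10 Wnt and homeobox, 6 clock and 6 immediate early genes lower. This threshold on lists was chosen after seeing the data. Calls against vehicle were followed gene by gene over the alternatives for 165 of the named genes. Genes named only to account for a small count were left out, among them Cyp17a1 and Trib3, whose calls were lost under some alternatives as stated above. Of the 144 followed genes that were called, 132 were called under all alternatives in which they were tested and 12 were lost under some. Of the 21 followed genes that were not called, 12 were called under some. None of the 144 was called in the opposite direction under an alternative. The labels do not say that replicate numbers pair the samples. Same-numbered E2 24 h and vehicle arrays correlated at -0.07, -0.19 and -0.26 in their deviations from the group means. Arrays of different number correlated at -0.05 to 0.20. These values cannot decide on a pairing, since the deviations of the 3 arrays of a group sum to 0. With the replicate block 13056 probes were called against vehicle, 15554 against E2 at 2 h and 3945 against E3 at 24 h. Where a probe was not well above background on any array of a group only a bound of the fold is given, and 3 arrays a group leave a median standard error of 0.19.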

Other observations

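Among 6828 genes with more than 1 probe tested, 13 had a probe called higher and a probe called lower, each by 2-fold or more. They were Adamtsl3, Afg3l1, Aldh5a1, Arnt, Clpb, Copz1, Eif4e2, Lman1, Memo1, Ppp2r5c, Ptbp2, Ptprz1 and Vcan. In Aldh5a1, which encodes a dehydrogenase of GABA breakdown, 1 probe averaged 1.94 with E2 and 0.13 in vehicle (change 1.81 ± 0.19, adjusted p = 3.8e-05) and the other -6.62 with E2 and -4.87 in vehicle (-1.75 ± 0.36, adjusted p = 0.002). In Adamtsl3, a matrix protein gene, the probes changed by 1.27 ± 0.28 and -1.88 ± 0.20. Arnt, the partner of the aryl hydrocarbon and hypoxia receptors, had 4 probes with changes of 1.12 ± 0.23, 0.44 ± 0.13, -0.28 ± 0.16 and -1.19 ± 0.18. Whether such probes report different transcripts was not tested.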
